A study of Mus musculus with 10 samples.

Results

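The 10 genes described here, which act in or on the endoplasmic reticulum, were followed through the livers of 10 mice, as the mRNA levels of Hspa5, Hsp90b1, Pdia4, Sdf2l1, Dnajb9, Dnajc3, Herpud1, Creld2, Xbp1 and Ern1. They were picked by name, as chaperones of that compartment, genes known as targets of the transcription factor XBP1, Xbp1 itself and its upstream sensor. All 10 were on the arrays, with 16 probes between them, out of 32636 names on the arrays and 17847 genes tested. Every mouse was a male of the inbred strain C57BL/6NCrSlc and was fed a high-cholesterol diet. The 5 control mice had no mulberry leaf extract, and the 5 mulberry mice took the extract orally in their drinking water for 4 weeks. No mice on an ordinary diet were analysed here, so levels are relative to animals that were themselves on the high-cholesterol diet. Each mouse gave 1 piece of liver and 1 one-colour Agilent microarray, on which dye-labelled RNA binds to short DNA probes and the brightness of a spot follows the amount of its transcript.

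The endoplasmic reticulum is the compartment in which secreted and membrane proteins are folded, and the hepatocyte, which makes most plasma proteins, loads it heavily. When unfolded protein builds up there, the sensors IRE1 (the product of Ern1), PERK and ATF6 start the unfolded protein response. Activated IRE1 cuts Xbp1 mRNA so that it is spliced into the form encoding the active transcription factor, while ATF6 is cleaved to release a transcription factor of its own. Both factors raise chaperones, disulfide isomerases and the proteins that move misfolded chains out for degradation, and PERK slows translation and raises ATF4. In the liver, XBP1 is also known for its part in lipid synthesis. Xbp1 had 1 probe, and its position in the mRNA was not examined, so the spliced and unspliced forms were not analysed here.

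Some of the 10 genes share a DNA element known from this response. It is shown first because the levels of its carriers are compared further on. The ER stress response element (ERSE) is CCAAT, a spacer of 9 bases and CCACG, read on either strand, and is known as a binding site for NF-Y at its first part and for ATF6 or XBP1 at its last. It was searched in RefSeq promoter windows of mouse assembly GRCm38.p6, from 250 bases before to 50 after each gene's start, and all 10 genes had a window. An ERSE stood in 4 of the 10 windows, those of Hspa5, Hsp90b1, Dnajc3 and Creld2, against 39 of 32851 windows of all genes (0.119%). Hsp90b1 carried 2 of them. The shorter ERSE-II, which is ATTGG, a spacer of 1 base and CCACG, stood in the Herpud1 window and in 12 windows of all genes (0.0365%). TGACGTGG, a core of the unfolded protein response element, stood in 0 of the 10 windows and in 0.676% of all windows. The part CCACG alone, which lies inside both longer elements, stood in 9 of the 10 windows and in 32.8% of all, and CCAAT alone in 8 of the 10 and in 37.4% of all. Over the 12532 windows of genes tested, the shares were 0.16% for the ERSE, 0.0638% for the ERSE-II and 0.83% for TGACGTGG. There CCACG stood in 44.7% and CCAAT in 37.2%. A match is a run of letters, not a measured binding site. The windows of all genes include those of the 10 genes. As the 10 were picked partly as known targets of XBP1, their shares are no test of enrichment. The 4 windows with an ERSE are printed 5′ to 3′ on the strand of the gene, with both ends of each element in capitals, where CGTGG followed by ATTGG is the same element on the opposite strand.
Hspa5, chr2:34771840-34772139, plus strand: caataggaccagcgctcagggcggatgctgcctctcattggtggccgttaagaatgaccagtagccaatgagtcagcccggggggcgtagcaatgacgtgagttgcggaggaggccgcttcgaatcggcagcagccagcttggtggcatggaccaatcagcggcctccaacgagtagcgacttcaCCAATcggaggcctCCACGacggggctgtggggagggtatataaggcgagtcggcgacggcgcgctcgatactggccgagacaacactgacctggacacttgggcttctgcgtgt
Hsp90b1, chr10:86705395-86705694, minus strand: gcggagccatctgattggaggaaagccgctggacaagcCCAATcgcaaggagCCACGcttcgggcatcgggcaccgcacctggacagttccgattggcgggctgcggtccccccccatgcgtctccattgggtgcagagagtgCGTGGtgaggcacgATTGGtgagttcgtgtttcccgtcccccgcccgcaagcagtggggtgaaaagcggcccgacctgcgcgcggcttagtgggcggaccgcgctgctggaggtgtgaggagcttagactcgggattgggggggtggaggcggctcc
Creld2, chr15:88819396-88819695, plus strand: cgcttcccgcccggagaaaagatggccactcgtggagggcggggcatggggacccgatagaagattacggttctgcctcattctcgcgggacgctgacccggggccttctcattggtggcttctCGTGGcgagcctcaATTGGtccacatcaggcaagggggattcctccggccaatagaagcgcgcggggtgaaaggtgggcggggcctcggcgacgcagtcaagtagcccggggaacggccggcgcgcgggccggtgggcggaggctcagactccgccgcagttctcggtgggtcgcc
Dnajc3, chr14:118937682-118937981, plus strand: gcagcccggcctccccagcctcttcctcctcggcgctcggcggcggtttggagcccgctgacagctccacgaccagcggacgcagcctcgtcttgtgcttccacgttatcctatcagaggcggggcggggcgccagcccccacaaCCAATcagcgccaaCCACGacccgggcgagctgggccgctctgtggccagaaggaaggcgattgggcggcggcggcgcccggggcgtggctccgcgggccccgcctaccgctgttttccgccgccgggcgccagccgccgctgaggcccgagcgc
Counted from the start of the gene, the Hspa5 element lay at -65 to -47 and the Dnajc3 element at -105 to -87. The Hsp90b1 pair lay at -212 to -194 and -107 to -89, and the Creld2 element at -126 to -108. From Herpud1 only the ERSE-II site at chr8:94386377-94386387 is shown, with the same parts in capitals.
Herpud1, plus strand: ATTGGgCCACG
Sdf2l1, the gene with the largest difference between the groups, had neither ERSE nor ERSE-II within its window, which is printed in lower case throughout.
Sdf2l1, chr16:17132334-17132633, minus strand: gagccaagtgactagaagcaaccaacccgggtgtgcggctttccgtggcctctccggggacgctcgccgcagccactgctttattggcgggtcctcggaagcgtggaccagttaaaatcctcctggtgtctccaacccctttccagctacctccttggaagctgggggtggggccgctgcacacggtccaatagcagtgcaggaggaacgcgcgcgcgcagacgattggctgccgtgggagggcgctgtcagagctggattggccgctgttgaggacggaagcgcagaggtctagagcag

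The arrays were of similar quality, with 54.4% to 62.4% of probes well above background per array and 0 saturated spots, and the 10 arrays correlated at 0.940 to 0.993 over the genes tested. All 16 probes of the 10 genes were well above background on all 10 arrays. All 11 hepatocyte markers on the arrays, albumin among them, were also well above background on every array. The arrays were read on 2 scan days and lay on 4 slides. Scan day 1 held control 2, 3 and 5 with mulberry 3 and 5, and scan day 2 held control 1 and 4 with mulberry 1, 2 and 4. Mulberry 1 and mulberry 5 stood apart from the other 8 arrays by high markers of macrophages and lymphocytes, so results are also given without them. In the deposited table of the whole series, the control columns numbered 1 to 5 were closest to the scanner files of control 5, 1, 2, 3 and 4 (r of 0.901 to 0.960 over 10250 genes, as deviations from each gene's mean over the arrays), while columns and files with the same control number gave r of -0.351 to -0.044. Which numbering is right cannot be told; control numbers here follow the scanner files, and the comparison of the groups does not depend on them. A level is log2 of the processed spot signal minus the 75th percentile of its array, so that 0 is that percentile, and the levels of different genes are not set against each other. In a piece of liver, fewer cells of a type and less RNA per cell cannot be told apart.

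All 10 genes had a lower mean in the mulberry livers than in the controls, and none of the differences passed the test. The differences ran from -0.72 for Sdf2l1 to -0.15 for Ern1 on the log2 scale, with a median of -0.26, against a median of -0.02 over all 17847 genes tested, of which 9459 were lower. With limma and Benjamini-Hochberg adjustment over all genes tested, 0 of the 10 genes and 0 of 17847 genes (0%) were called at an adjusted p under 0.05. At an unadjusted p under 0.05, 2 of the 10 were lower, Dnajc3 and Sdf2l1, against 409 of 17847 genes lower (2.29%) and 924 in either direction (5.18%). The control and mulberry arrays overlapped for all 10 genes, as they did for all but 130 of the genes tested (0.728%). Leaving out mulberry 1 and mulberry 5 took the median of the 10 genes to 0.03, with 5 of them lower. The lowest of the 10 arrays was mulberry 1 or mulberry 5 for every gene, so part of this shift follows from which arrays were left out. Sdf2l1 and Dnajc3 then kept the largest differences, at -0.56 ± 0.27 and -0.30 ± 0.14 (SE), with 3 mulberry arrays against 5 controls.

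**Figure D1:**
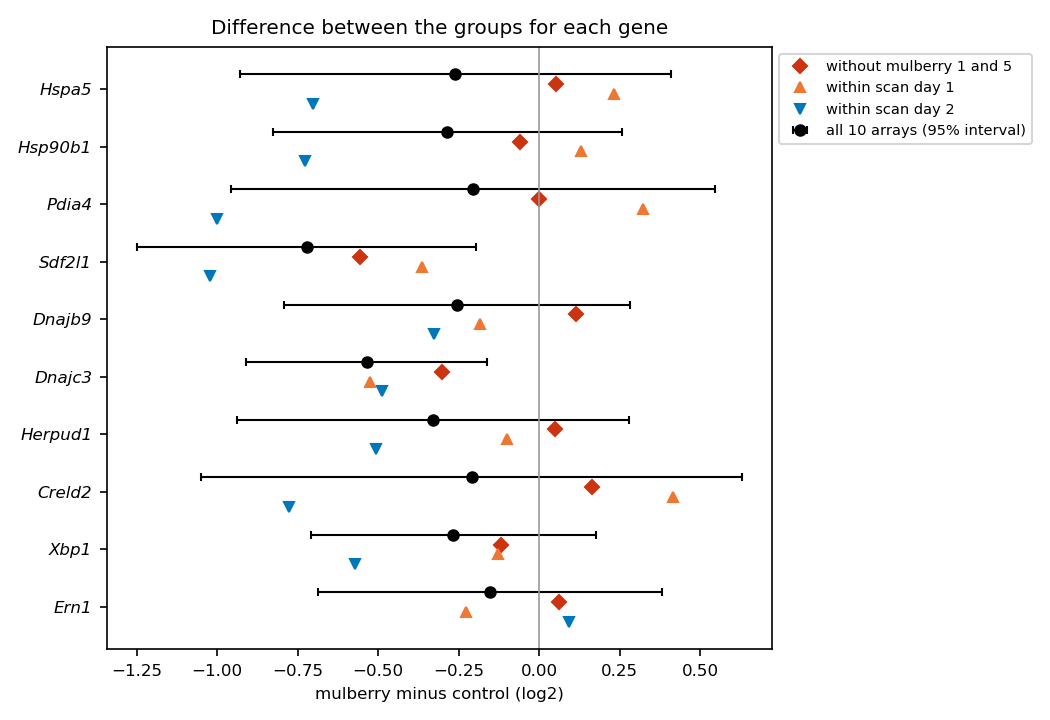
Difference of each of the 10 genes between the groups, mulberry minus control, in log2 units (horizontal axis). Black points are all 10 arrays with the 95% interval of the limma fit, red diamonds leave out mulberry 1 and mulberry 5, and triangles are the differences within each scan day. The black intervals of Sdf2l1 and Dnajc3 lie below 0, the other 8 cross it, and the red diamonds of Sdf2l1 and Dnajc3 lie farthest below 0.

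Hspa5 encodes BiP, the Hsp70 chaperone of the endoplasmic reticulum that binds nascent chains and holds the stress sensors inactive. Its levels in control 1 to 5 were 7.73, 7.38, 6.72, 6.83 and 6.74, and in mulberry 1 to 5 they were 6.10, 6.72, 7.75, 6.93 and 6.61. The highest and the lowest of the 10 arrays were both mulberry arrays, mulberry 3 and mulberry 1. The mean was 7.08 ± 0.45 (SD, n = 5) in controls and 6.82 ± 0.60 in mulberry mice, a difference of -0.26 ± 0.30 (SE, limma adjusted p = 0.909), or 83.5% of the control level. Hsp90b1 encodes GRP94, the Hsp90 chaperone of the same compartment. Control 1 to 5 had levels of 6.84, 6.15, 5.96, 6.05 and 5.74, and mulberry 1 to 5 had 5.42, 5.78, 6.53, 5.96 and 5.63. On this brightest probe mulberry 1 and mulberry 5 lay below every control and mulberry 3 above all controls but control 1. The order of the arrays on it was much like that of Hspa5. The group difference was -0.29 ± 0.25 (SE, limma adjusted p = 0.897), and a second probe of the gene gave -0.41 ± 0.36. The second probe correlated with the brightest at r of 0.704 over the 10 arrays. On it control 4, at 4.284, lay below mulberry 5 at 4.943. For both chaperones, the difference was smaller than the SD among mice of the same group.

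Pdia4, which encodes ERp72, a disulfide isomerase that rearranges bonds in folding proteins, varied most among the controls. Its levels were 4.02, 2.77, 2.63, 3.85 and 2.39 in control 1 to 5 and 2.86, 2.71, 3.46, 3.23 and 2.38 in mulberry 1 to 5. Control 1 and control 4, the 2 controls of scan day 2, were the 2 highest arrays, while the 3 controls of scan day 1 lay among the lowest. The control mean of 3.13 ± 0.75 (SD, n = 5) and the mulberry mean of 2.93 ± 0.43 differed by -0.21 ± 0.34 (SE, limma adjusted p = 0.933). Creld2, a protein with a disulfide isomerase activity that is known to be induced by stress of the endoplasmic reticulum, had the widest range of the 10 genes, 4.02-fold from the lowest to the highest mouse. It stood at 6.47, 6.41, 4.96, 5.73 and 5.56 in control 1 to 5 and at 4.63, 5.89, 6.64, 5.44 and 5.48 in mulberry 1 to 5. Mulberry 3 was the highest and mulberry 1 the lowest of all 10, and the controls alone spanned most of that range. The difference of -0.21 ± 0.38 (SE, limma adjusted p = 0.937) was small beside SDs of 0.63 and 0.73 within the groups (n = 5 each). Its spread within groups was larger than that of 89.7% of the genes tested, and that of Pdia4 larger than 86.2%.

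The co-chaperones that work with BiP held the 2 largest differences. Sdf2l1 encodes a small protein found in complex with BiP and its J-domain partners. The controls read 3.81, 3.84, 3.16, 3.40 and 3.28, and the mulberry arrays 2.55, 2.51, 3.62, 2.69 and 2.51 in the order of their numbers. Mulberry 1, 2, 4 and 5 lay close together and below every control, and mulberry 3 lay among the controls. Mean levels of 3.50 ± 0.31 and 2.78 ± 0.48 (SD, n = 5 each) gave a difference of -0.72 ± 0.24 (SE, limma adjusted p = 0.897), or 60.6% of the control level with a 95% interval of the log2 difference from -1.25 to -0.20. Leaving out 1 array gave -0.93 ± 0.17 without mulberry 3 (limma adjusted p = 0.333) to -0.64 ± 0.25 without control 2 (limma adjusted p = 0.850).

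Dnajc3 encodes p58IPK, a J-domain partner of BiP that is also described as an inhibitor of PERK. Its control levels were the tightest of the 10 genes, at 4.40, 4.58, 4.62, 4.38 and 4.48. The mulberry levels were 3.56, 4.07, 4.41, 4.09 and 3.66. On this brightest probe all 5 mulberry mice lay below the control mean and 4 of them below the lowest control, while mulberry 3 fell among the controls. The means of 4.49 ± 0.10 and 3.96 ± 0.35 (SD, n = 5 each) differed by -0.54 ± 0.17 (SE, limma adjusted p = 0.897), or 69.0% of the control level. Its 4 probes gave -0.54, -0.44, -0.51 and -0.49, and the other 3 correlated with the brightest at r of 0.898 to 0.931 over the 10 arrays. The order of the mice was not the same on all of them. On the second brightest probe mulberry 3, at 4.407, lay above the highest control at 4.267, and on the third at 3.513 against 3.509. On the dimmest probe mulberry 2, at 2.531, was not below the lowest control at 2.323. Leaving out 1 array gave -0.65 ± 0.15 without mulberry 3 (limma adjusted p = 0.681) to -0.44 ± 0.16 without mulberry 1 (limma adjusted p = 0.704).

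Dnajb9 encodes ERdj4, a J-domain protein that recruits BiP to IRE1 and holds that sensor inactive. It measured 2.95, 3.27, 2.63, 3.04 and 2.89 in control 1 to 5 and 2.03, 3.17, 3.23, 2.82 and 2.26 in mulberry 1 to 5. Mulberry 1 and mulberry 5 were well below the controls, and the other 3 mulberry arrays fell within the range of the controls. The difference was -0.26 ± 0.24 (SE, limma adjusted p = 0.897) with all arrays, its 2 dimmer probes gave -0.27 and -0.33, and without mulberry 1 and mulberry 5 it was 0.11 ± 0.18.

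Herpud1 encodes a membrane protein of the complex that passes misfolded proteins to the proteasome. It was at 6.96, 6.62, 7.07, 7.11 and 7.18 in control 1 to 5 and at 5.63, 7.21, 7.17, 6.75 and 6.55 in mulberry 1 to 5. Mulberry 1 alone lay far below the other arrays, and mulberry 2 was the highest of all. The difference was -0.33 ± 0.28 (SE, limma adjusted p = 0.897), and it was -0.07 without mulberry 1 and 0.05 ± 0.18 without mulberry 1 and mulberry 5.

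For the transcription factor and the sensor the groups overlapped widely. Xbp1 levels were 3.42, 2.69, 2.51, 3.25 and 2.88 in control 1 to 5 and 2.54, 2.68, 2.75, 3.07 and 2.39 in mulberry 1 to 5. As with Pdia4, control 1 and control 4 were the highest arrays, and all mulberry arrays but mulberry 5 lay inside the range of the controls. The difference was -0.27 ± 0.20 (SE, limma adjusted p = 0.897), with means of 2.95 ± 0.38 and 2.69 ± 0.26 (SD, n = 5 each). Ern1, the gene of IRE1, had levels of -1.47, -0.79, -0.61, -1.04 and -0.63 in the controls and -1.54, -0.56, -0.59, -1.39 and -1.22 in the mulberry mice. Control 1 and mulberry 1 were the lowest arrays of their groups, and the groups overlapped almost entirely. The difference of -0.15 ± 0.24 (SE, limma adjusted p = 0.930) was the smallest of the 10, with a 95% interval from -0.69 to 0.38.

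**Figure D2:**
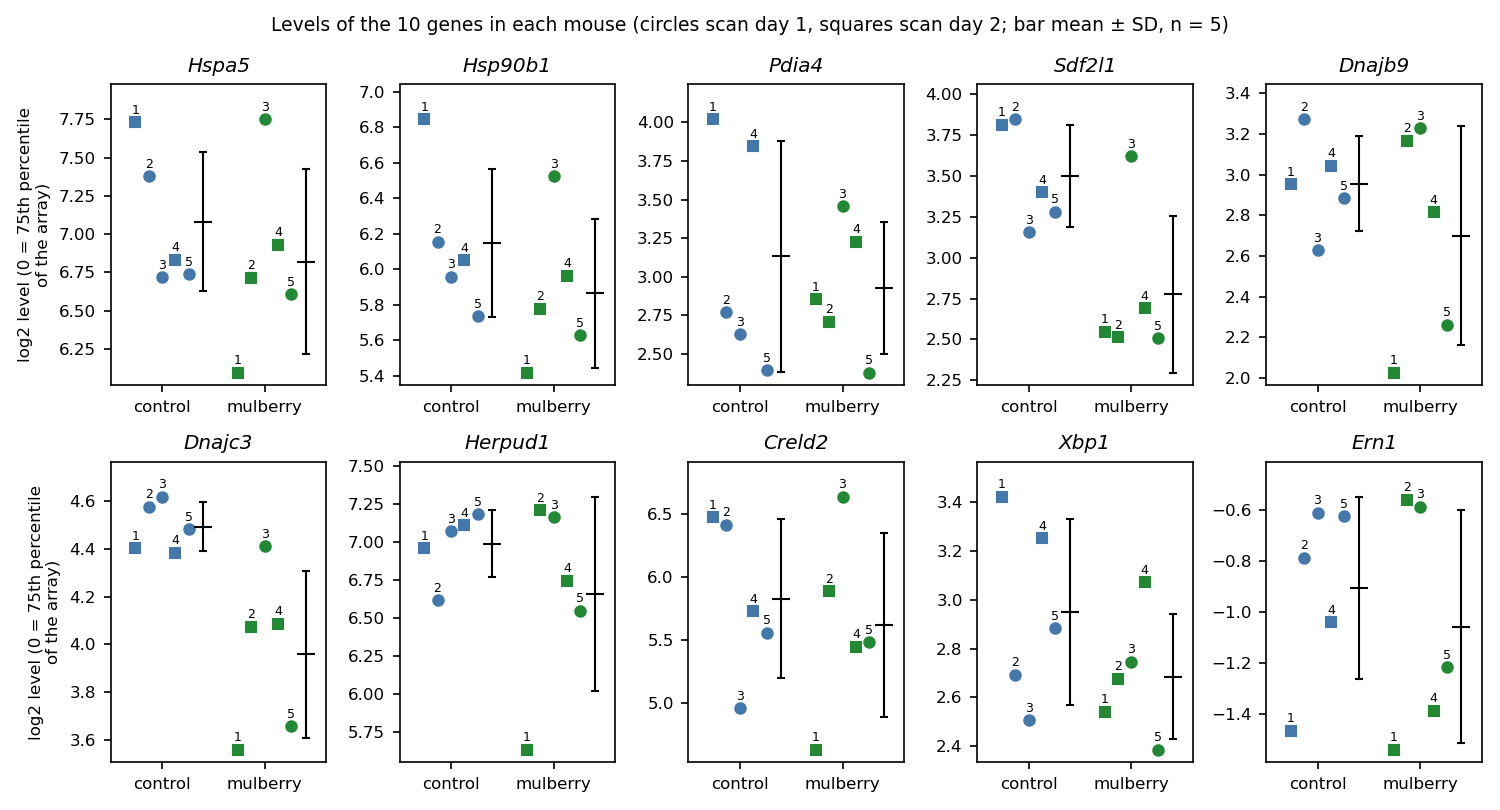
Level of each of the 10 genes in every mouse, in log2 units with 0 at the 75th percentile of the array (vertical axis, a separate scale for each gene). Numbers name the mice, circles were read on scan day 1 and squares on scan day 2, and bars are the mean ± SD (n = 5). Mulberry 1 is the lowest point for 7 genes and mulberry 3 the highest mulberry point for 7, and for Sdf2l1 4 mulberry mice lie together below the controls.

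The 10 genes tended to be low or high together in the same mouse. Averaged over the 10 genes relative to the control mean, mulberry 1 stood at -0.84, mulberry 5 at -0.59, mulberry 4 at -0.26, mulberry 2 at -0.20 and mulberry 3 at 0.28, and the controls ran from -0.25 in control 3 to 0.30 in control 1. Mulberry 1 had the lowest level of the 10 arrays for 7 genes and mulberry 5 for the other 3. Each of these 2 mice was below the lowest control for 8 genes and above the control mean for 0. Mulberry 3 was above the control mean for 8 genes and below the lowest control for 0. The 2 low mice were also those with the highest means of macrophage, lymphocyte, stellate cell and plasma cell markers, but not of every other cell type. Relative to the control mean, the mean of 15 macrophage markers was 2.16 in mulberry 1 and 2.07 in mulberry 5, against -0.75 to 0.15 in mulberry 2, 3 and 4 and -0.82 to 0.97 in the controls, and 14 of the 15 markers had a higher mean in the mulberry group. Lymphocyte markers (12 genes, all 12 higher) were at 1.99 and 1.69 in the same 2 mice, from -0.08 to 0.07 in the other mulberry mice and from -0.41 to 0.71 in controls. Stellate cell markers (7 genes, 6 higher) stood at 1.44 and 1.50 there. Bile duct markers (4 genes) were at 0.95 in mulberry 1 and 0.19 in mulberry 5. The latter was below mulberry 4 at 0.35 and control 5 at 0.26. Endothelial markers (5 genes) were at 0.08 in mulberry 1 and 0.28 in mulberry 5, against -0.21 to 0.13 in controls. The mean of 11 hepatocyte markers, all lower in the mulberry group, was -1.04 in mulberry 1 and -0.39 in mulberry 5, from -0.30 to -0.03 in mulberry 2, 3 and 4, and from -0.43 to 0.25 in controls. Plasma cells, which also fill themselves with endoplasmic reticulum, had 4 of 7 markers tested, with 3 higher and Sdc1 lower in the mulberry group. Prdm1, Tnfrsf17 and Irf4 were too dim to be tested. The mean of the 4 was 1.29 and 0.92 in mulberry 1 and mulberry 5, from -0.06 to 0.25 in the other mulberry mice and from -0.34 to 0.35 in controls. Of pancreatic acinar markers, another cell rich in this compartment, 5 of the 11 on the arrays were well above background on 0 arrays. The mean of the 5 tested ranged from -0.08 to 0.86 per mulberry array and from -0.11 to 0.13 per control. Their single differences ran from -0.74 to 1.09. Cela1 and Cela3b were well above background on only 5 arrays each and passed the filter through 1 group alone. These means are therefore no comparison of the groups. All 16 macrophage and 13 lymphocyte markers on the arrays were well above background on at least 1 array. Without mulberry 1 and mulberry 5, Hspa5 stood at 0.05, Dnajb9 at 0.11, Herpud1 at 0.05, Creld2 at 0.16 and Ern1 at 0.06, on the other side of 0, while Sdf2l1 and Dnajc3 stayed below 0; the part of the other cells in the remaining differences was not tested.

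**Figure D3:**
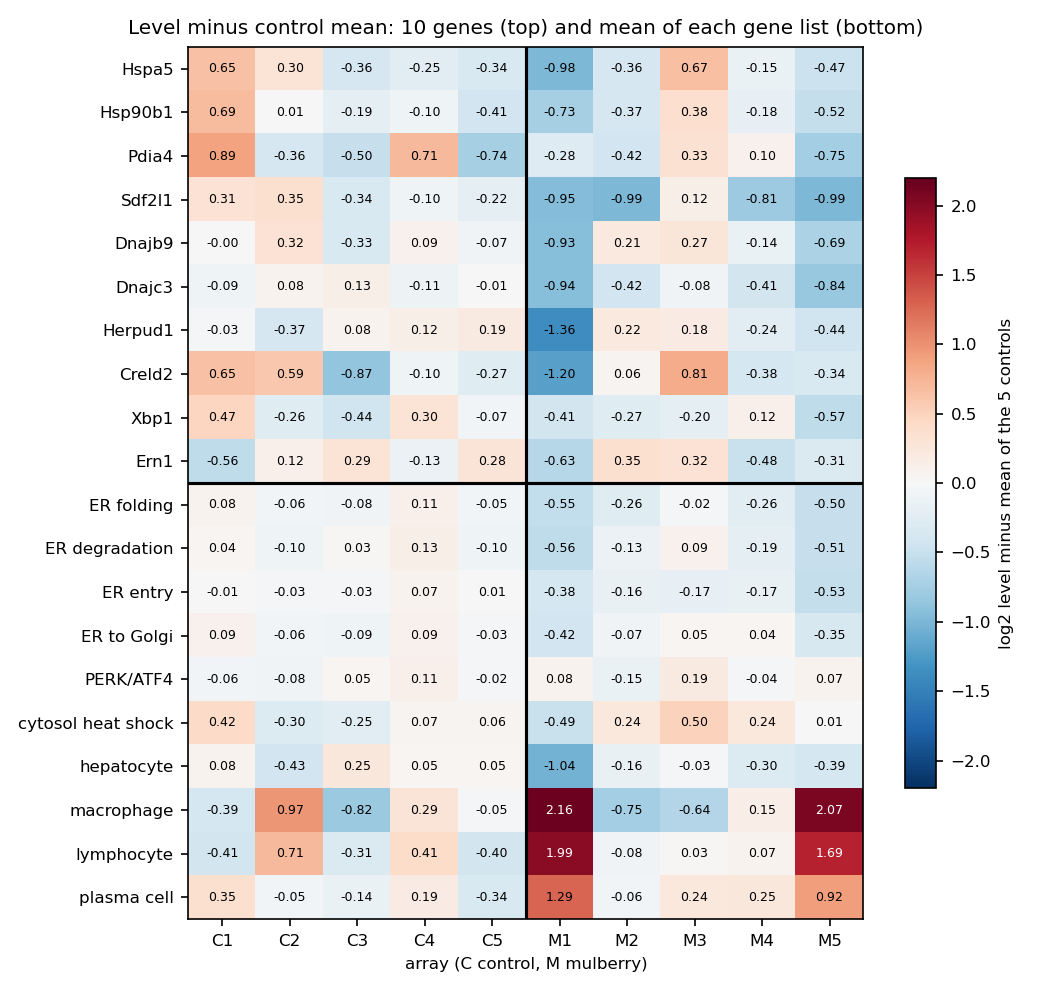
Level minus the mean of the 5 controls, in log2 units (colour and printed value), for each array (columns, C control and M mulberry). The 10 genes are at the top and the means of the gene lists below them. M1 and M5 are blue for all 10 genes and red for macrophages, lymphocytes and plasma cells, and M3 is red for 8 of the 10 genes.

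The differences were also taken within each scan day. All controls of day 1 lay on slide 1 and its mulberry arrays on slide 2, so within that day slide and group cannot be told apart; on day 2, slide 3 held control 1, control 4 and mulberry 1, and slide 4 held mulberry 2 and mulberry 4. Within scan day 2 (2 controls and 3 mulberry arrays), 9 of the 10 were lower in mulberry mice, with a median of -0.64, and within scan day 1 (3 controls and 2 mulberry arrays) 6 of the 10 were lower, with a median of -0.11. Dnajc3 was nearly the same on both days, at -0.53 on day 1 and -0.49 on day 2, and Sdf2l1 was lower on both, at -0.36 and -1.02. Hspa5 was at 0.23 on day 1 and -0.70 on day 2, Hsp90b1 at 0.13 and -0.73, and Creld2 at 0.42 and -0.78. Pdia4 differed most between the days, at 0.32 and -1.002. Its interaction of group and scan day was -1.32 ± 0.44 (SE, limma adjusted p = 0.9998), and 0 of 17847 genes (0%) were called for that interaction. Between the controls alone, day 1 minus day 2 was -1.34 for Pdia4 and -0.64 for Xbp1. For Dnajb9 the 2 days gave -0.18 and -0.33, for Herpud1 -0.10 and -0.51, for Xbp1 -0.13 and -0.57, and for Ern1 -0.23 and 0.09. With scan day as a block, the differences of Sdf2l1 and Dnajc3 were -0.69 ± 0.25 and -0.51 ± 0.17 (limma adjusted p = 0.885 for each). Mulberry 1, the lowest array, was read on day 2, and mulberry 3, the highest mulberry array, on day 1.

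The rest of the folding and export machinery was set beside the 10 genes through lists of related genes, and 0 genes of any list were called. Of 20 other folding factors of the compartment, 19 were lower in mulberry mice, 7 of them at an unadjusted p under 0.05, with a median of -0.33. Over all genes tested 53.0% were lower, and 2.29% were lower at that p. For 1 of the 20, Ppib at -0.45 ± 0.13 (SE), the groups did not overlap, as for 0.728% of all genes tested. The oxidase Ero1b was at -0.62 ± 0.26 (SE), the disulfide isomerases Pdia6 and Pdia5 at -0.54 ± 0.18 and -0.47 ± 0.18, and the lectin chaperone Calr at -0.49 ± 0.17 (limma adjusted p = 0.897 for each). Per array, the mean of this list lay from -0.55 to -0.02 in the mulberry mice and from -0.08 to 0.11 in the controls. It was -0.55 and -0.50 in mulberry 1 and mulberry 5, and -0.02 in mulberry 3.

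Of 18 genes of the pathway that extracts misfolded proteins for degradation, all 18 were lower, 2 at an unadjusted p under 0.05, with a median of -0.19. Derl3, a channel component of that pathway and a known target of XBP1, had the largest difference of all lists of the compartment, -1.36 ± 0.57 (SE, limma adjusted p = 0.897). Its levels were 1.84, 1.98, 2.33, 0.75 and 1.02 in control 1 to 5 and -0.70, 0.09, 2.53, -0.21 and -0.55 in mulberry 1 to 5. As with Sdf2l1, mulberry 1, 2, 4 and 5 lay below every control and mulberry 3 did not, here as the highest of the 10. Derl2 stood at -0.36 ± 0.16, Edem1 at -0.34 ± 0.17 and Edem2 at -0.31 ± 0.18.

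The 24 genes of protein entry, signal peptide removal and N-glycosylation were all lower, 7 at an unadjusted p under 0.05, with a median of -0.29. Their list mean was below every control in every mulberry mouse, from -0.53 to -0.16 against -0.03 to 0.07. Mulberry 2, 3 and 4 were at -0.16, -0.17 and -0.17, so for this list mulberry 3 did not stand with the controls. For 4 of the 24 genes, Sec61b, Ddost, Ssr2 and Ssr3, the groups did not overlap, as for 0.728% of all genes tested; Ssr2 and Ssr3 were named after their values were seen. Sec61b, a subunit of the translocation channel, was at 6.25, 6.21, 6.30, 6.42 and 6.43 in the controls and 6.06, 6.06, 5.86, 5.98 and 5.66 in the mulberry mice, a difference of -0.40 ± 0.12 (SE, limma adjusted p = 0.897). Ddost, a subunit of the enzyme that attaches N-glycans, was at -0.36 ± 0.12, the signal peptidase subunits Spcs2 and Spcs3 at -0.42 ± 0.14 and -0.36 ± 0.17. Without mulberry 1 and mulberry 5 the list's median was -0.16, that of the folding factors -0.16 and that of the degradation genes -0.02.

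Of 16 genes of transport between the endoplasmic reticulum and the Golgi, 15 were lower with a median of -0.11, led by the coat subunit Sec23b at -0.39 ± 0.21 and the cargo receptor Lman1 at -0.35 ± 0.18. Without mulberry 1 and mulberry 5 that median was 0.03, on the other side of 0. The PERK and ATF4 branch was divided, with 6 of 10 lower and a median of -0.01. The stress gene Nupr1 was at 0.64 ± 0.48, Ddit3, which encodes CHOP, at 0.33 ± 0.24, Chac1, an enzyme that breaks down glutathione, at -0.46 ± 0.36 and Atf4 itself at -0.22 ± 0.17. Of 9 genes of the ATF6 family and other regulators, 8 were lower with a median of -0.09, with the membrane protein Wfs1 at -0.53 ± 0.23 and Atf6 at -0.21 ± 0.20. Among 13 chaperones of the cytosol and mitochondria 3 were lower, with a median of 0.07, and the inducible Hsp70 gene Hspa1b was at 0.47 ± 0.41 and Hspa8 at 0.28 ± 0.25. The difference between these lists and the 10 genes was not tested. The genes with an ERSE in their window numbered 37, of which 19 were tested and 15 were lower, with a median of -0.26. The 15 of them outside the 10 genes had 11 lower and a median of -0.20. They include Calr, Canx, Ero1b, Pdia6, Derl3 and Syvn1 of the lists above, all lower, and 9 genes of no list, of which 5 were lower and 4 higher.

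**Figure D4:**
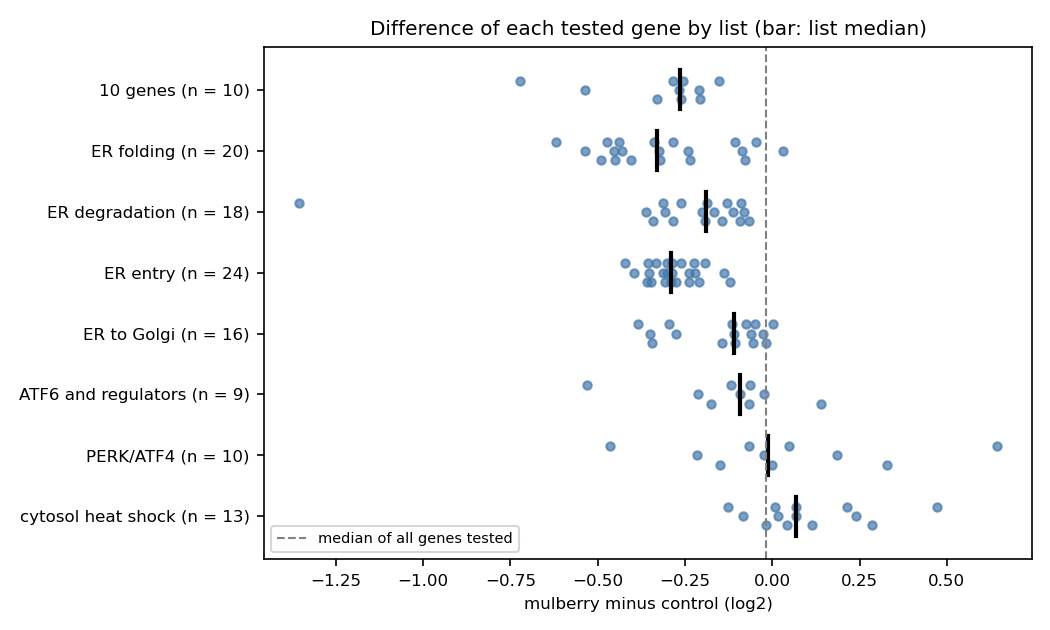
Difference of each tested gene, mulberry minus control in log2 units (horizontal axis), by gene list (rows). Points are genes, black bars list medians, and the dashed line is the median of all genes tested at -0.02. The lists of folding, degradation and entry lie almost wholly left of 0, the PERK and ATF4 list spreads to both sides, and the leftmost point is Derl3.

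How the 10 genes varied together over the 10 mice was measured for all 45 pairs, with permutation p-values adjusted over the 45 pairs. Pearson's r was above 0 for 43 pairs and ran from -0.361 to 0.947 with a median of 0.574, against a median of 0.0971 over all pairs of genes tested. At an adjusted permutation p under 0.05 there were 8 pairs by r and 1 by Spearman's rho. The closest pair was Hspa5 and Hsp90b1 (r = 0.947, permutation p = 3.0e-05, adjusted p = 0.00135; rho = 0.939, permutation p = 2.6e-04, adjusted p = 0.0117; n = 10). Its r was 0.902 without the 2 arrays farthest from the median of Hspa5 and 0.924 without mulberry 1 and mulberry 5. These values use the brightest Hsp90b1 probe. The second probe, at r of 0.704 with the brightest, was not set against Hspa5. Hspa5 and Creld2 followed (r = 0.915, permutation p = 4.8e-04, adjusted p = 0.0108; rho = 0.758, permutation p = 0.0154, adjusted p = 0.0865), at 0.852 and 0.868 in the same 2 checks. Of the genes with an ERSE in their window, Hsp90b1 and Creld2 had an r of 0.801 (adjusted permutation p = 0.0307). Dnajc3 had an r of 0.616 with Hspa5, 0.608 with Hsp90b1 and 0.495 with Creld2, none past the adjusted threshold. Sdf2l1, with no ERSE in its window, had 0.801 with Hspa5 and 0.799 with Hsp90b1 (adjusted permutation p = 0.0307 for each). With Creld2 it had 0.699 (adjusted permutation p = 0.0809). The part of the ERSE in these values was not tested. The transcription factor Xbp1 was closest to Pdia4 (r = 0.827, permutation p = 0.00421, adjusted p = 0.0307; rho = 0.758, permutation p = 0.0149, adjusted p = 0.0865), and both were highest in the 2 controls of scan day 2. That relation was at 0.476 without the 2 arrays farthest from the median of Pdia4, while it was 0.801 without mulberry 1 and mulberry 5, 0.753 with deviations from the scan day means and 0.768 with quantile normalization. Ern1 was the least like the rest, with a mean r of 0.209 against 0.641 for Hspa5. Ern1 and Xbp1 had an r of -0.307 (permutation p = 0.383, adjusted p = 0.441; rho = -0.212, permutation p = 0.562, adjusted p = 0.666). That value was not stable, at -0.85 without mulberry 1 and mulberry 5, 0.0318 without the 2 arrays farthest from the median of Xbp1 and 0.0122 with deviations from the scan day means.

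The agreement was smaller without the 2 low mice. For each of the 10 genes, the lowest of the 10 arrays was mulberry 1 or mulberry 5. Part of this fall therefore follows from which arrays were left out. Without mulberry 1 and mulberry 5 the median r of the 45 pairs was 0.225, 27 pairs were above 0 and 0 passed the adjusted threshold, over 8 arrays. Dnajb9 and Dnajc3 went from 0.743 to -0.122, and Dnajc3 and Herpud1 from 0.714 to -0.0745. With deviations from the group means the median was 0.556, with deviations from the scan day means 0.657 and with quantile normalization 0.385. The 75th percentile subtracted from each array was highest in mulberry 1 (283.3 in signal units) and lowest in mulberry 3 (152.8). Mulberry 5, the other low mouse, had 221.6, below control 2 at 232.2 and mulberry 4 at 250.4. The part of this scaling in the agreement was not tested. Each scan day holds 5 arrays, too few for a correlation of its own. The 10 genes were chosen with results of these arrays known, so these values describe the 10 mice.

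**Figure D5:**
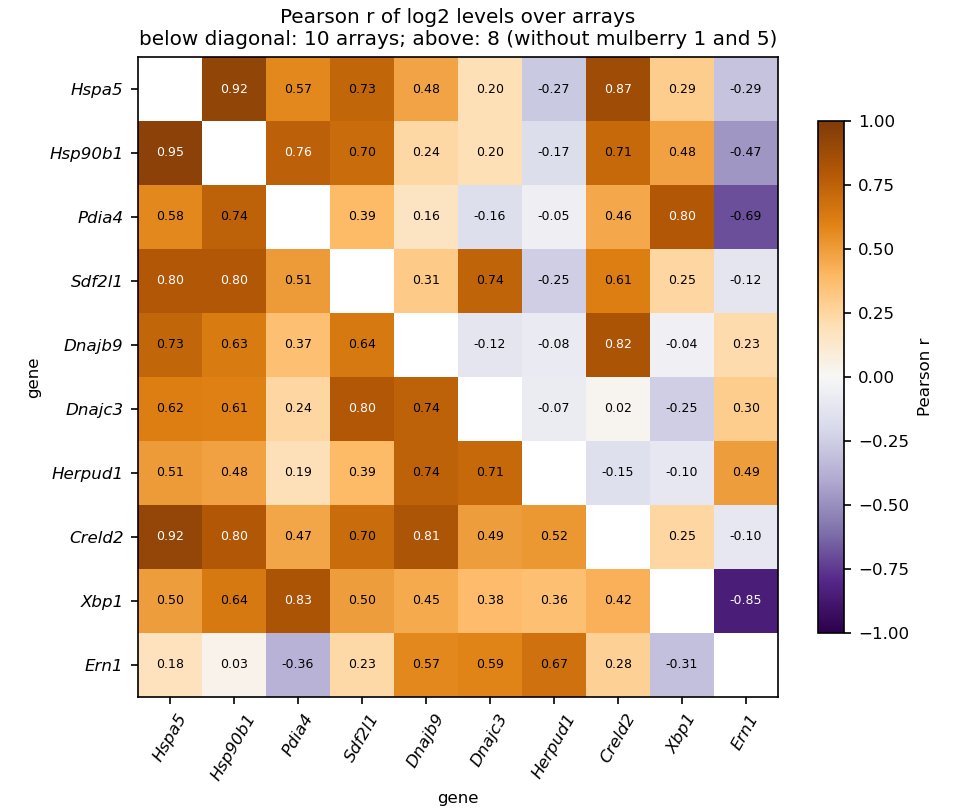
Pearson's r between the log2 levels of each pair of the 10 genes (colour and printed value), over 10 arrays below the diagonal and over 8 arrays, without mulberry 1 and mulberry 5, above it. Hspa5, Hsp90b1 and Creld2 stay at 0.71 or higher on both sides, while Dnajb9, Dnajc3 and Herpud1 lose their relation above the diagonal.

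The genes whose levels followed the mean of the 10 genes most closely over the 10 arrays were ranked among 17837 others by Pearson's r. After ENSMUST00000004574, an ID with no gene name here (r = 0.983), came Tmem214 (0.967), Spryd4 (0.963), Sec11a (0.959), Btf3l4 (0.958), Manf (0.957), BC027278 (0.956), Mcts2 (0.953), Hes6 (0.952) and Hax1 (0.951). Sec11a is the catalytic subunit of signal peptidase and Manf a factor of the endoplasmic reticulum that binds BiP, and both were in the lists above. Manf differed by -0.45 ± 0.30 (SE, limma adjusted p = 0.897) between the groups. With levels as deviations from the group means, 1 of these 10 genes stayed among the 10 closest. All of them still had an r of 0.941 to 0.979 there, at ranks from 2 to 42. By list, the median r with the mean of the 10 genes was 0.789 for degradation, 0.708 for folding, 0.672 for transport to the Golgi, 0.597 for hepatocyte markers, 0.592 for chaperones of the cytosol and mitochondria, 0.558 for protein entry, -0.661 for macrophage and -0.777 for stellate cell markers, all over the same 10 arrays. As deviations from the group means, the cytosol and mitochondria list had the highest median r, 0.795, against 0.718 for degradation and 0.606 for folding.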

How the data were processed

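Liver RNA of 5 control and 5 mulberry mice was hybridised to 1-colour Agilent arrays. The authors deposited, for each array, the scanner's intensity per spot. Per the file headers the processed column had local background removed and no scaling to other arrays. The submitters' processing notes name Agilent Feature Extraction 10.1.1.1. The table of the whole series, also deposited, holds linear intensity values by symbol, with its normalization not given in the sources used here, and served as an alternative. Each array had 43379 spots that were not controls and 41174 probes. Outlier spots were left out and replicate spots averaged, and 46 incomplete probes were dropped, which left 41128. Of these, 25070 (61.0%) were named through RefSeq accessions, the rest as the design named them. The file headers name an older mouse assembly, so coordinates come only from the RefSeq promoter table of GRCm38.p6.

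Levels were log2 of the processed signal minus the array's 75th percentile (152.8 to 283.3 in signal units). The brightest probe stood for a gene, and a gene was tested if it was well above background in 4 or more of the 5 arrays of either group. The fit was limma 3.58.1 (lmFit and eBayes, two-sided, R 4.3.3, package data.table, version 1.17.8) without a block. The fit was first tested on simulated data. Correlations used 100000 permutations (SciPy 1.17.1, Python 3.11.15), and plots matplotlib 3.10.9. With 10 arrays, their number limits the precision.

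The 10 genes, the gene lists and the alternatives were chosen with earlier results of these data known. The text names all 10 genes, at most 4 genes a list, those of greatest absolute difference, the 10 genes most like their mean, and list members with an ERSE in their window. Outside this rule, Ssr2, Ssr3 and Ppib were named because their groups did not overlap.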

Additional observations from a re-analysis of the deposited data

Results flagged for a closer look

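Among 52 sets of 5 arrays examined for an array apart from its group (20 of single genes and 32 of list means), 1 was marked, where chance gives about 2.6. Sdf2l1 in mulberry 3 stood at 3.62 against 2.51 to 2.69 in the other 4 mulberry mice, a gap of 0.835 of the group's range (critical value 0.71).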

How the results depend on the processing

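Across 27 alternative settings, 253 of 270 differences of the 10 genes kept their sign, 17 turned, and none of the 10 genes was called in any. Not all settings could turn a sign. Keeping dim probes, requiring signal well above background on all 10 arrays and the replicate block left the differences of the 10 genes as in the main fit. Slide as a fixed block and the fit within slide 3 gave the same differences as each other. Sdf2l1 (-1.06 to -0.36) and Dnajc3 (-0.84 to -0.30) were below 0 in all 27. With array weights, which weigh arrays by how well they follow the fit, Hspa5 turned to 0.0293, Pdia4 to 0.28, Creld2 to 0.0732 and Xbp1 to 2.4e-04. Within scan day 1, Hspa5 turned to 0.23, Hsp90b1 to 0.13, Pdia4 to 0.32 and Creld2 to 0.42, and within scan day 2 Ern1 to 0.0912. Without mulberry 1 and mulberry 5, Hspa5 turned to 0.052, Dnajb9 to 0.114, Herpud1 to 0.0506, Creld2 to 0.164 and Ern1 to 0.061. Leaving out 1 array took Pdia4 from -0.390 to 0.0161, the last without control 1, and Creld2 from -0.465 to 0.0373, the last without mulberry 1. Ern1 turned to 0.0475 with normexp background correction, run on the median signal after seeing that the files hold no mean signal. The cause of these turns was not tested. Over all genes, 1 was called with array weights and 1 without mulberry 1 and mulberry 5; leaving out 1 array gave 0 to 1, with 1 without mulberry 1. Genes at an unadjusted p under 0.05 numbered 550 to 1308 without 1 array, 1743 without mulberry 1 and mulberry 5, 2137 with median scaling, 324 within scan day 2, 2688 with array weights, 564 with the series table, 1567 where dim probes were kept, 3629 with slide as a fixed block and 3213 within slide 3. The median of the 10 genes ran from -0.45 to -0.13 without 1 array, was -0.64 within scan day 2, and -1.04 both with slide as a fixed block and within slide 3, which holds mulberry 1 as its only mulberry array. It was -0.42 with median scaling, where all genes had a median of -0.17, and -0.53 with normexp. With array weights it was -0.02, with 6 of the 10 genes lower. Of 405 list medians, 45 moved by more than the spread between arrays. Pairs of the 10 genes past the threshold numbered 2 with quantile normalization, 1 without the 2 arrays farthest from the median, 18 with deviations from scan day means and 0 without mulberry 1 and mulberry 5, the last added after seeing the data, as were the interaction with scan day and the genes grouped by ERSE.

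Arrays with the same number in the scanner files correlated at r of -0.258, -0.444, 0.408, 0.00982 and -0.026 for numbers 1 to 5. With the numbering of the controls in doubt, these values cannot decide whether the numbers pair the mice. A block of the replicate number leaves the differences unchanged in this balanced design, so the median of the 10 genes was again -0.26. With it 0 genes were called, with a limma adjusted p of 0.921 for Dnajc3 and Sdf2l1, and 942 genes were at an unadjusted p under 0.05.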
